A study of Mus musculus with 8 samples.

Results

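The neutrophil granule genes Ltf, Camp, Ngp, Lcn2, Mmp8, Pglyrp1, Wfdc21, Ly6g and Retnlg were followed through 8 single-cell libraries of mouse brain after stroke. They are a named list of 9 genes, all 9 of which were found among the 20340 genes of the count tables. Neutrophils were cells with at least 1 UMI (a counted transcript molecule) of Csf3r, the G-CSF receptor, and at least 50 UMIs of S100a8 plus S100a9 per 10000. Of 39945 deposited cells, 39608 had at most 10% mitochondrial UMIs; 6414 of these passed this gate, and the 5735 of them that passed no other cell type's gate were used. The mice were male C57BL/6J animals aged 8 to 9 weeks, labelled WT (Prdx1+/+) or Prdx1-/-, the latter being the label for loss of peroxiredoxin 1, an antioxidant enzyme. All underwent a 60 min occlusion of the middle cerebral artery followed by reperfusion, so the contralateral hemisphere is not that of an unoperated mouse. Each combination of genotype label, hemisphere (contralateral or ipsilateral to the occlusion) and time (24 or 48 h) is 1 library. The number of mice in a library is not given in the sources used here, and p-values below measure spread between libraries.

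Neutrophils store antimicrobial proteins in granules that are filled in order while the cell matures in the bone marrow: primary (azurophil) granules first, then secondary (specific), then tertiary granules and secretory vesicles. Transcription of most granule cargo stops before the cell leaves the marrow, and C/EBP-epsilon, the product of Cebpe, is required for the secondary granule genes. After stroke, neutrophils enter the ischaemic hemisphere from the blood within hours to days. Ltf encodes lactoferrin, an iron-binding protein, Camp the precursor of the cathelicidin peptide, Ngp a cystatin-like granule protein, Lcn2 the siderophore-binding lipocalin NGAL and Mmp8 the neutrophil collagenase. Pglyrp1 encodes a peptidoglycan recognition protein, Wfdc21 a small whey acidic protein domain protein, and Retnlg a resistin-like secreted protein. Ly6g encodes the surface antigen used to sort mouse neutrophils and is not granule cargo.

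Ltf, Camp and Ngp had the highest mean correlations with each other among the 9 members over single ipsilateral neutrophils (given below with their ranges), and all 3 lie on chromosome 9 of the mouse build GRCm38 (mm10): Camp at 109847377 to 109849456, Ngp at 110419808 to 110423012 and Ltf at 111019292 to 111042766. The 250 bases before the annotated start of each, from RefSeq (GRCm38.p6), are shown for that reason, 5′ to 3′ in the direction of transcription. Capitals mark the letters TTGCNNAA, a C/EBP-type motif, on either strand. Camp is on the minus strand at chr9:109849457-109849706, Ngp on the plus strand at chr9:110419558-110419807 and Ltf on the plus strand at chr9:111019042-111019291.
Camp: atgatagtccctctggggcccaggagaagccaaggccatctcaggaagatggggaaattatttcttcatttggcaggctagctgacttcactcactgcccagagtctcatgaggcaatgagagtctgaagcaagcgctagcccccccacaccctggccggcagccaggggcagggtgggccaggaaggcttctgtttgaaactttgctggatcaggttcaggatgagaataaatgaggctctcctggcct
Ngp: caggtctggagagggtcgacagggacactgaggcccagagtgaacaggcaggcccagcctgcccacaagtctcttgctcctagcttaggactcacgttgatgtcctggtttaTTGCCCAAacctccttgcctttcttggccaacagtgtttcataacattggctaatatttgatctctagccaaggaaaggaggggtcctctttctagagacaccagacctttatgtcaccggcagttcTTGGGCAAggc
Ltf: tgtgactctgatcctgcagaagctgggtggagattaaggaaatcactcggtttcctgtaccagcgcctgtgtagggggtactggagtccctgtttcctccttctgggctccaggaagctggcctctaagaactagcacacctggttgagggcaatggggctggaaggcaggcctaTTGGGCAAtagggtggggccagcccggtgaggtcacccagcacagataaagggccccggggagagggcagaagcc
The Ngp stretch held 2 matches, beginning 138 and 11 bases before the start, the Ltf stretch held 1, beginning 75 bases before it, and the Camp stretch held none. Of the 9 members, 8 had an entry in the RefSeq table (Wfdc21 was without one), and 6 of those 8 held at least 1 match. Over all 32817 stretches of this length, 9.57% held one. A second run of letters, GAGGAAG, was also searched on either strand. It was found for 4 of the 8 members and in 10.6% of all stretches, and the Camp, Ngp and Ltf stretches held 0. A match is a run of letters and not a measured binding site. The other members lie on chromosome 2 (Lcn2, 32384637 to 32387739), 7 (Pglyrp1, 18884690 to 18890438), 9 (Mmp8, 7558429 to 7568486), 11 (Wfdc21, 83746940 to 83752646), 15 (Ly6g, 75155261 to 75159128) and 16 (Retnlg, 48872608 to 48874498), and all 9 are protein-coding.

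The libraries held 39433266 to 70111421 UMIs in all, and the neutrophils summed numbered 89, 41, 157 and 290 contralaterally and 949, 1154, 1274 and 1781 ipsilaterally. Here and below, 4 values for a hemisphere are in the order WT 24 h, Prdx1-/- 24 h, WT 48 h, Prdx1-/- 48 h, and CPM is a gene's UMIs per 1000000 UMIs of the summed neutrophils. Median depth of a neutrophil was 3502 to 7177 UMIs, and S100a8 plus S100a9 stood at 140410 to 310733 CPM in the sums. Across all pairs of libraries, 203 cell barcodes were shared, of which 3 were shared between neutrophils. Prdx1 itself was at 33.3, 16.1, 32.5 and 5.34 CPM contralaterally and at 79.3, 80.1, 114 and 7.88 CPM ipsilaterally. At 24 h the libraries labelled Prdx1-/- thus held Prdx1 transcripts, ipsilaterally at the WT level, and are called by their label throughout.

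Ltf, Camp and Ngp varied most between libraries. Ltf was at 4249, 1842, 2051 and 2337 CPM contralaterally and at 13.5, 414, 289 and 2900 CPM ipsilaterally. Camp was at 13927, 3624, 6973 and 14601 CPM contralaterally and at 17.5, 1303, 1282 and 14343 CPM ipsilaterally. Ngp was at 16493, 4407, 8456 and 14020 CPM contralaterally and at 544, 1765, 1066 and 14058 CPM ipsilaterally. For each of the 3, the WT ipsilateral library at 24 h was the lowest of 8, and the 3 lowest libraries were ipsilateral. The fourth ipsilateral library, labelled Prdx1-/- at 48 h, lay among the contralateral ones, so the hemispheres overlapped. The highest library exceeded the lowest 314-fold for Ltf, 836-fold for Camp and 30.3-fold for Ngp.

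The other granule cargo genes varied within a narrower range. Lcn2 was at 15962, 8999, 7873 and 10495 CPM contralaterally and at 8483, 6937, 3550 and 9764 CPM ipsilaterally. Pglyrp1 was at 2416, 1662, 1884 and 2032 CPM contralaterally and at 1294, 1073, 688 and 1851 CPM ipsilaterally. In both genes every ipsilateral library was below its contralateral partner of the same label and time. Mmp8 was at 1577, 939, 1284 and 1111 CPM contralaterally and at 1463, 965, 429 and 1108 CPM ipsilaterally. Wfdc21 was at 5515, 4002, 2835 and 3534 CPM contralaterally and at 4317, 3394, 1779 and 3688 CPM ipsilaterally. For both, 3 of 4 pairs were lower ipsilaterally, and the WT ipsilateral library at 48 h was the lowest of 8. The highest library exceeded the lowest 4.50-fold for Lcn2, 3.51-fold for Pglyrp1, 3.68-fold for Mmp8 and 3.10-fold for Wfdc21.

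The surface and secreted members, Ly6g and Retnlg, also had their lowest value in the WT ipsilateral library at 48 h. Ly6g was at 403, 578, 525 and 469 CPM contralaterally and at 284, 308, 128 and 450 CPM ipsilaterally, lower ipsilaterally in 4 of 4 pairs. Retnlg was at 21561, 23296, 28437 and 21016 CPM contralaterally and at 29143, 19238, 6994 and 16150 CPM ipsilaterally. Its highest and its lowest library were both WT and ipsilateral, at 24 h and 48 h. In that lowest library 6 of the 9 members reached their minimum, and its neutrophils were also the shallowest, with a median of 3502 UMIs.

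**Figure D1:**
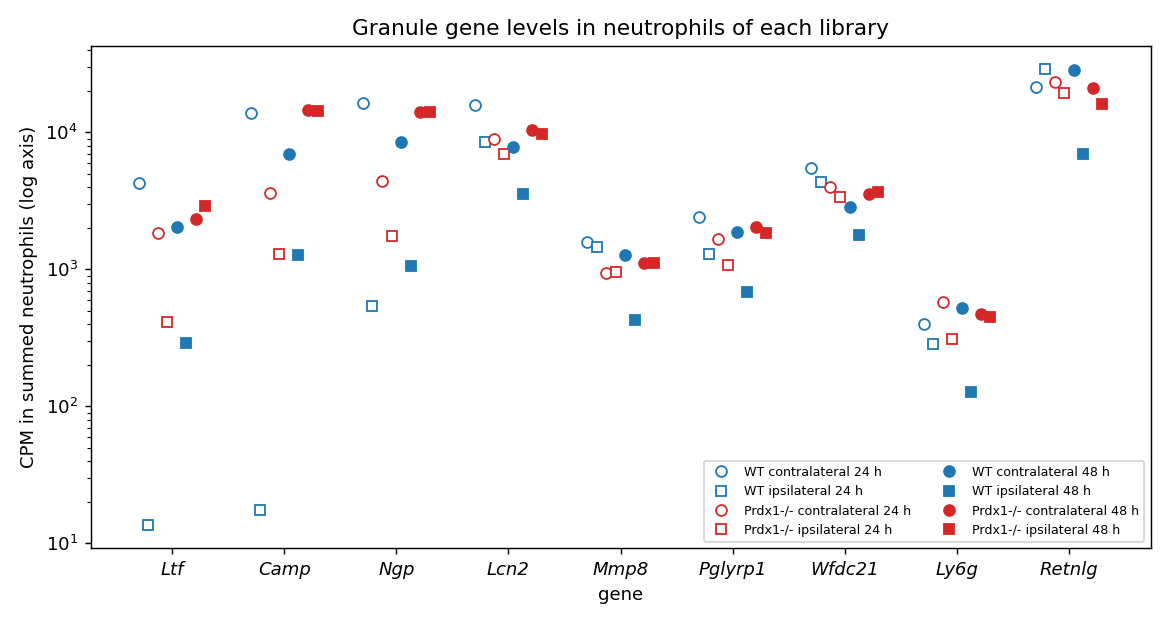
Level of each gene in the summed neutrophils of each of the 8 libraries, in CPM on a log axis. Circles are contralateral and squares ipsilateral, blue is WT and red the Prdx1-/- label, open symbols are 24 h and filled 48 h; the open blue squares for Ltf and Camp, at 13.5 and 17.5 CPM, lie far below the rest.

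Within a library, Ltf, Camp and Ngp were carried by few cells. A cell was called rich when the 3 genes together reached at least 100 UMIs per 10000, a level set after the distribution had been seen; 89 cells lay between 50 and 200 per 10000. Rich cells numbered 21 of 89, 2 of 41, 15 of 157 and 40 of 290 contralaterally, which is 23.6%, 4.88%, 9.55% and 13.8%. Ipsilaterally they numbered 2 of 949, 19 of 1154, 10 of 1274 and 230 of 1781, which is 0.211%, 1.65%, 0.785% and 12.9%. The exact 95% binomial intervals, which cover counting error only, ran from 11.4 to 14.6% in the Prdx1-/- ipsilateral library at 48 h and from 0.377 to 1.44% in its WT counterpart. At 24 h the corresponding ipsilateral intervals were 0.994 to 2.56% for the Prdx1-/- label and 0.0255 to 0.759% for WT. Rich cells held 93.8 to 99.2% of all Ltf, Camp and Ngp UMIs of the neutrophils in 7 libraries, and 17.7% in the WT ipsilateral library at 24 h.

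**Figure D2:**
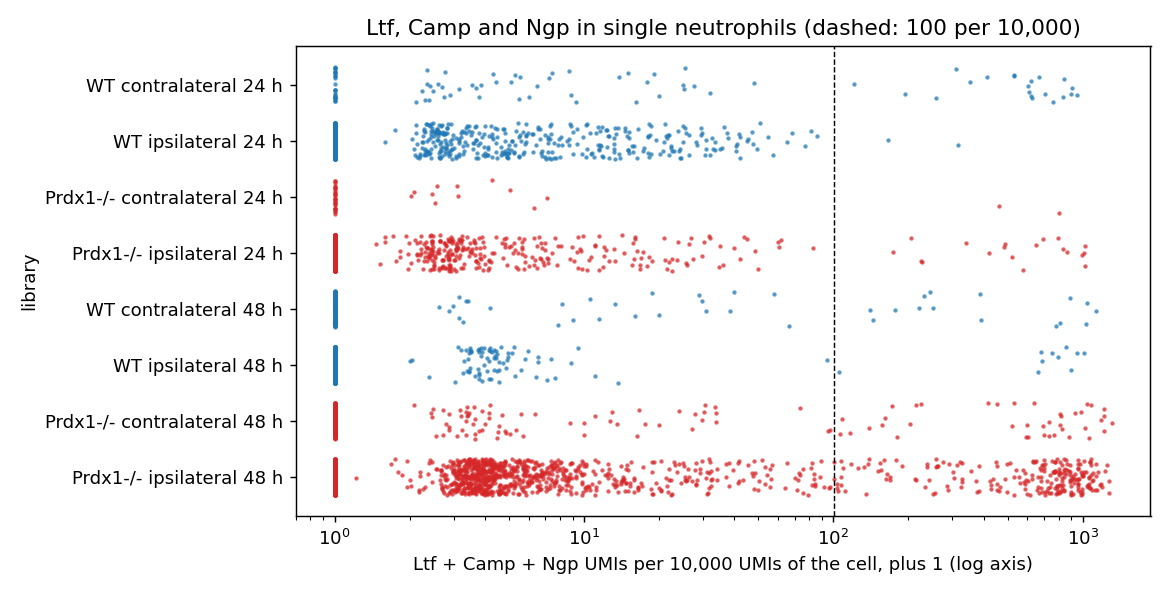
Ltf plus Camp plus Ngp in each of the 5735 neutrophils, as UMIs per 10000 UMIs of the cell plus 1 on a log axis, by library (blue WT, red Prdx1-/- label; vertical scatter within a row is for display). Right of the dashed line, at 100 per 10000, lie 2 cells of the WT ipsilateral library at 24 h and 230 of the Prdx1-/- ipsilateral library at 48 h.

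The remaining neutrophils held little of Ltf and Camp. Without rich cells, Ltf was at 3.32 to 29.1 CPM and Camp at 4.71 to 160 CPM across the 8 libraries. The highest Camp value was in the Prdx1-/- ipsilateral library at 48 h, where Camp was at 158 CPM in monocytes/macrophages, 61.5 CPM in B cells, 49.0 CPM in microglia and 42.6 CPM in T/NK cells. In the same library 39.1% of all neutrophils, its 230 rich cells included (median 4020 UMIs), and 47.5% of microglia (median 12085 UMIs) had a Camp UMI. After each cell was thinned to 2000 UMIs the shares were 26.9% and 9.94%, so the order of the unthinned shares was not kept at equal depth, and no order is read from them. Ngp was higher than Ltf and Camp in neutrophils that were not rich, at 637, 80.1, 441 and 509 CPM contralaterally and at 462, 208, 27.6 and 580 CPM ipsilaterally. In the WT ipsilateral library at 24 h, Ngp was at 1.07 CPM in microglia. In that library 24.6% of all neutrophils, rich cells included, had an Ngp UMI after each cell was thinned to 2000 UMIs. The shares were 1.16% for Camp and 1.16% for Ltf, and the unthinned shares of the 3 genes were 36.8%, 2.85% and 2.95%. Of 5735 neutrophils, 81 were too shallow to be thinned, 2 of them in that library.

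The gate left some rich cells out. Among all cells 502 were rich, of which 339 were in the neutrophils used, 51 also passed another cell type's gate and 108 had the S100 level without a Csf3r UMI. Of the 108, 73 were in the Prdx1-/- ipsilateral library at 48 h. Rich cells were deeper than other neutrophils, with medians of 12268 to 25491 UMIs against 3498 to 6745 UMIs in the 8 libraries. In the 6 libraries with at least 10 rich cells, Csf3r was at 69.0 to 196 CPM in them against 1081 to 1814 CPM in the others. The gate's Csf3r UMI can therefore leave out shallow rich cells first, and its part in the depths and in the shares of rich cells was not tested. A doublet score marked 14 of the 339 rich cells and 113 of the 5396 others.

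Rich cells carried more of 6 of the 9 members in 6 of 6 libraries with at least 10 of them: the 3 genes that chose them and also Lcn2, Pglyrp1 and Wfdc21. Lcn2 was at 16308 to 21112 CPM in rich cells and at 3120 to 8863 CPM in the others. Pglyrp1 was at 2192 to 3184 CPM against 638 to 1835 CPM, and Wfdc21 at 4992 to 5764 CPM against 1648 to 5173 CPM. Mmp8 and Ly6g were higher in rich cells in 5 of 6 libraries, the exception being WT contralateral at 24 h. Retnlg was higher in rich cells in 2 of 6 and lower in 4 of 6 libraries, with 9202 to 38242 CPM against 6701 to 38555 CPM. Since rich cells were chosen by 3 of the members, these are descriptions with no test.

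Other granule genes followed the same division. Of 12 further genes listed with the secondary granules, 8 were higher in rich cells in 6 of 6 libraries and 1, the protease inhibitor gene Slpi, was lower in 6 of 6. Chil3, a chitinase-like protein gene, was at 5980 to 12478 CPM in rich cells against 883 to 2040 CPM. Lyz2 (lysozyme) was at 7630 to 13250 CPM against 1100 to 2885 CPM. Cybb, the NADPH oxidase subunit of specific granule membranes, was at 916 to 1743 CPM against 47.6 to 103 CPM, and Cd177 at 895 to 1066 CPM against 29.4 to 322 CPM. Of the primary granule genes, Ms4a3 and Fcnb were higher in 6 of 6 libraries. Elane (neutrophil elastase) reached 1467 CPM and Mpo (myeloperoxidase) 544 CPM in rich cells of some libraries, while each was at 0 in those of at least 1 other.

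Among the 6 transcription factor genes for granule production, Cebpe was higher in rich cells in 6 of 6 libraries, at 277 to 486 CPM against 9.06 to 28.3 CPM. Cebpb, Cebpd and Spi1 were lower in 6 of 6, Cebpb at 921 to 2287 CPM against 6125 to 7611 CPM. All 14 genes of the activation list were lower in rich cells in 6 of 6 libraries. Cxcl2, a neutrophil chemoattractant, was at 80.6 to 833 CPM against 8757 to 29108 CPM, and Il1b at 34.5 to 770 CPM against 7271 to 17067 CPM. All 7 traffic and age genes were lower too, among them Cxcr2, a CXC chemokine receptor, at 158 to 383 CPM against 1090 to 1823 CPM. Of the tertiary granule and secretory vesicle list, 1 of 11 (Anxa1, annexin A1) was higher and 5 were lower in 6 of 6 libraries. Mki67, a marker of cycling cells, was at 49.0 to 296 CPM in rich cells against 1.82 to 23.4 CPM. In 6 of 6 libraries 8 of 10 interferon response genes and 3 of 5 erythrocyte genes were lower too. S100a8 was at 134074 to 156917 CPM in rich cells against 58381 to 111305 CPM, and S100a9 at 163074 to 193704 CPM against 75254 to 149237 CPM. CPM is a share, so such genes leave less for the rest. The share of all genes higher or lower in rich cells was not counted, so the counts by list have no background beside them.

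Medians over single cells gave the same order in 6 of 6 libraries for the other genes examined that way, while Fcnb had a median of 0 in both sets of cells. Camp had a median of 117 to 331 UMIs per 10000 in rich cells and 0 in the others, and Il1b 0 to 1.55 per 10000 in rich cells against 60.7 to 179 per 10000. The summed monocyte/macrophage gate genes had a median of 6.55 to 12.6 per 10000 in rich cells and 0 to 3.62 per 10000 in the others, below the gate's 20 per 10000. Microglia gate genes had medians of 0.616 to 1.92 and 0 to 2.83 per 10000. The 9 other gates' genes had a median of 0 in both sets of cells. The part of other cells' RNA in these differences was not tested.

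**Figure D3:**
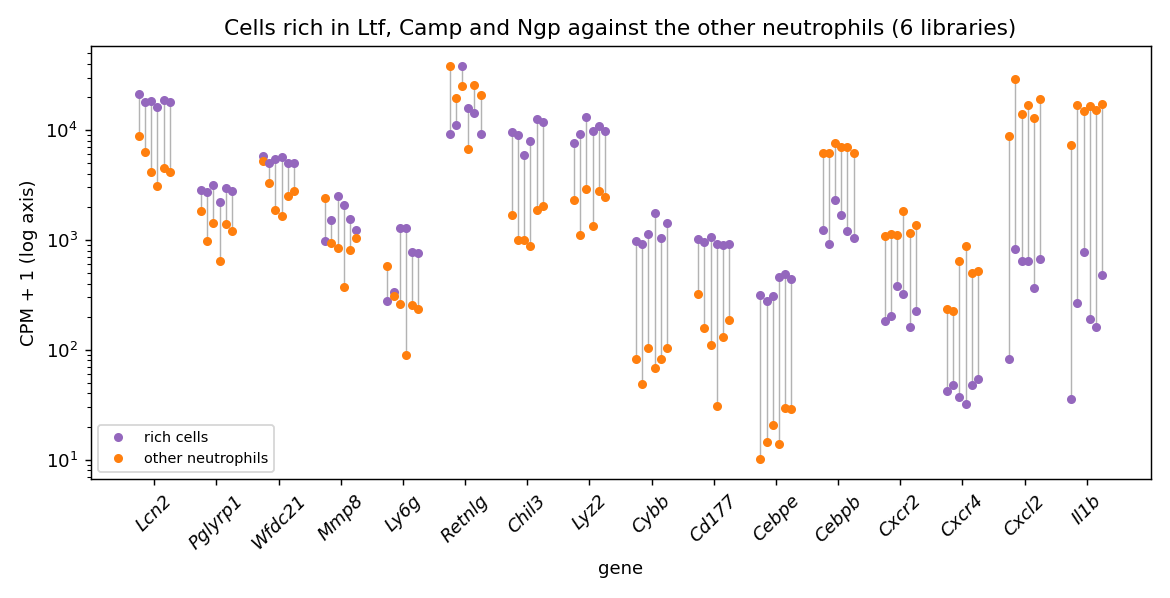
CPM plus 1 on a log axis of 16 genes in cells rich in Ltf, Camp and Ngp (purple) and in the other neutrophils (orange), with 1 joined pair for each of the 6 libraries with at least 10 rich cells. Chil3, Lyz2, Cybb, Cd177 and Cebpe lie higher, and Cebpb, Cxcr2, Cxcr4, Cxcl2 and Il1b lower, in rich cells of every pair.

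Correlation from cell to cell was taken as the mean of Pearson's r over single neutrophils in the 4 ipsilateral libraries. Ltf and Camp were at 0.82 (0.50 to 0.95 over the libraries), Camp and Ngp at 0.70 (0.27 to 0.92), and Ltf and Ngp at 0.68 (0.20 to 0.88). The lowest value of each pair was that of the WT ipsilateral library at 24 h, which held 2 rich cells. Mmp8 and Retnlg were at 0.44 (0.39 to 0.52), Lcn2 and Wfdc21 at 0.43 (0.38 to 0.54), and Wfdc21 and Retnlg at 0.42 (0.38 to 0.51). Retnlg was near 0 with Camp (0.017) and Ltf (0.014) and at 0.19 with Ngp (0.13 to 0.30). The cells of a library share its free RNA and its range of depths, and these values are descriptions. Among 3212 other genes detected in at least 5% of neutrophils, those most correlated with the summed members were S100a9 (0.57), S100a8 (0.57), Ifitm6 (0.47), Lyz2 (0.40), Anxa1 (0.37) and Mgst1 (0.35). S100a8 and S100a9 also define the gate. Over the 8 library sums, the 6 of 2031 genes closest to the mean log2 level of the members were Adpgk (r = 0.98), Syne1 (0.96), Tkt (0.96), Aldh2 (0.96), Ech1 (0.96) and Anxa1 (0.96); only Anxa1 is in both sets of 6.

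Hemisphere was compared by 4 ipsilateral against 4 contralateral libraries, with the other factors in the fit. All 9 members had lower fitted levels ipsilaterally, and none passed the test: 0 of 9 were called, where the share of all 9182 genes called was 0%. Their median log2 fold change was -0.69, beside -0.02 over all genes. Ltf had a log2 fold change of -2.93 ± 1.90 (SE), Camp of -2.91 ± 2.21 and Ngp of -2.33 ± 1.37. The smallest p was that of Ly6g, at -0.76 ± 0.34 (adjusted p = 0.474 by the quasi-likelihood test of edgeR, corrected over all genes by Benjamini and Hochberg). Adjusted p for the others reached 0.811, and 0 of 9 members but 995 of all genes had an unadjusted p below the 0.05 threshold. DESeq2 called 193 genes and 0 members, and gave 4 members an unadjusted p below 0.05. Without the WT ipsilateral library at 48 h, Mmp8 (0.12) and Wfdc21 (0.0099) turned to positive log2 fold changes, and without the Prdx1-/- ipsilateral library at 48 h 341 genes but no member passed. The summed 5 erythrocyte genes, all detected, were at 8.03 to 3094 CPM contralaterally and 4929 to 15775 CPM ipsilaterally in the neutrophil sums. All 5 had an unadjusted p below 0.05 (edgeR), beside 10.8% of all genes, with a median log2 fold change of 4.32. None of the 5 passed the test, the smallest adjusted p being 0.223 (Alas2, edgeR), and their part in the members' result was not tested.

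Genes of the other lists moved in both directions between hemispheres, again with no gene called. All 6 primary granule genes tested had lower fitted levels ipsilaterally (median log2 fold change -2.03), and 0 of them had an unadjusted p below 0.05 (edgeR). Fcnb had the smallest p of the 6, at -2.76 ± 2.15 (adjusted p = 0.661 by edgeR), and Elane was at -2.20 ± 4.84. Lower fitted levels ipsilaterally were also found for 11 of 12 further genes listed with the secondary granules (-1.09), a list not limited to granule cargo. The smallest p in that list were those of Padi4, at -0.93 ± 0.28 (adjusted p = 0.295 by edgeR), and Lyz2, at -1.18 ± 0.49 (adjusted p = 0.448 by edgeR). Of the 14 activation genes 13 had higher fitted levels (1.17), with Tnf at 2.05 ± 0.29 (adjusted p = 0.0871 by edgeR). The 10 tested tertiary granule and secretory vesicle genes had a median of 0.24, with 7 higher and 3 lower.

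Time was compared by 4 libraries at 48 h against 4 at 24 h. Ltf, Camp and Ngp had higher fitted levels at 48 h (0.86 ± 1.62, 1.43 ± 1.95 and 0.84 ± 1.28 on the log2 scale) and the other 6 members lower ones. Again 0 of 9 were called, beside 0.0109% of all genes (1 gene, Ggt1); 810 genes had an unadjusted p below 0.05, and DESeq2 called 84 genes and 0 members. Wfdc21, at -0.80 ± 0.33, was the member with the smallest p (0.0366 unadjusted, adjusted p = 0.531, edgeR). Without the Prdx1-/- ipsilateral library at 48 h, Ltf and Ngp turned to -0.36 and -0.31, so the direction of both rested on that library. Without the 24 h libraries labelled Prdx1-/-, Ltf, Camp and Ngp were at -0.25, -0.018 and -0.72. In a fit of the 4 ipsilateral libraries alone, Ltf had a log2 fold change of 3.24 and passed (adjusted p = 0.0460, edgeR), the only member to do so. That fit held 1 library per combination of label and time, so its spread came from few libraries. Its count over all genes is given with the alternatives below.

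The genotype labels were compared first over all 8 libraries. Of the 9 members, 7 had higher and 2 lower fitted levels under the Prdx1-/- label, the median being 0.11 on the log2 scale; 0 were called, beside 0% of all genes. All 9 had an adjusted p of 0.9998 (edgeR); 127 genes and 0 members had an unadjusted p below 0.05, and DESeq2 called 0 genes. Mmp8 (-0.18 ± 0.41) and Retnlg (-0.15 ± 0.41) were the 2 lower ones, and both turned positive within the 48 h libraries, at 0.61 and 0.41.

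At 48 h, where Prdx1 was low under the Prdx1-/- label, all 9 members had higher fitted levels under that label than in WT, with a median log2 fold change of 0.81 beside 0.02 over all genes. Ltf was at 2.50 ± 2.36, Camp at 2.78 ± 2.61 and Ngp at 2.62 ± 1.52. Lcn2 was at 0.98 ± 0.37 (unadjusted p = 0.0225, adjusted p = 0.716, edgeR) and Wfdc21 at 0.73 ± 0.32 (unadjusted p = 0.0411, adjusted p = 0.716, edgeR). None of the 9 passed, beside 0.0109% of all genes; the 1 gene that did was Prdx1 itself, at -3.34 ± 0.40 (adjusted p = 0.0457, edgeR). An unadjusted p below 0.05 was found for 631 genes, and DESeq2 called 14 genes and 0 members. The result depended on single libraries. Without the WT contralateral library at 24 h, Camp (2.29, adjusted p = 0.00389), Lcn2 (0.93, adjusted p = 0.0116) and Pglyrp1 (0.76, adjusted p = 0.0354) passed edgeR's test, as did 679 genes in all. Without the Prdx1-/- contralateral library at 48 h, Ngp was at 3.80, in a fit that left 1 library of that label at 48 h. Without the WT ipsilateral library at 48 h, Mmp8 and Retnlg turned to -0.26 and -0.64, and without the Prdx1-/- ipsilateral library Ltf turned to -0.38.

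The ipsilateral difference between labels at 48 h was also present in cells that were not rich. In those, Lcn2 was at 4141 CPM under the Prdx1-/- label and 3120 CPM in WT, Pglyrp1 at 1211 and 638 CPM, Wfdc21 at 2760 and 1648 CPM, and Mmp8 at 1032 and 373 CPM. Retnlg was at 20910 and 6701 CPM, and Ly6g at 235 and 89.2 CPM. Contralaterally the 2 libraries were closer, with Lcn2 at 4514 and 4123 CPM and Mmp8 at 809 and 843 CPM. Each figure is from 1 library and has no replicate. Among the other lists at 48 h, 11 of 12 further genes listed with the secondary granules had higher fitted levels under the Prdx1-/- label (median 1.37), with Chil3 at 2.10 ± 0.46 (adjusted p = 0.599, edgeR). All 7 traffic and age genes had lower ones (-0.57).

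The difference between hemispheres was set against time in an interaction. Ltf, Camp and Ngp had positive terms (3.89 ± 2.13, 4.46 ± 2.58 and 2.82 ± 1.75), meaning that the ipsilateral level was less far below the contralateral one at 48 h, and Retnlg had the most negative term, -1.34 ± 0.73. None of the 9 passed, beside 0% of all genes, with adjusted p from 0.866 to 1 (edgeR); 482 genes and 0 members had an unadjusted p below 0.05, and DESeq2 called 15 genes and 0 members. Without the WT contralateral library at 24 h, the Ngp term turned to -0.66, and without the Prdx1-/- ipsilateral library at 48 h to -0.22.

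**Figure D4:**
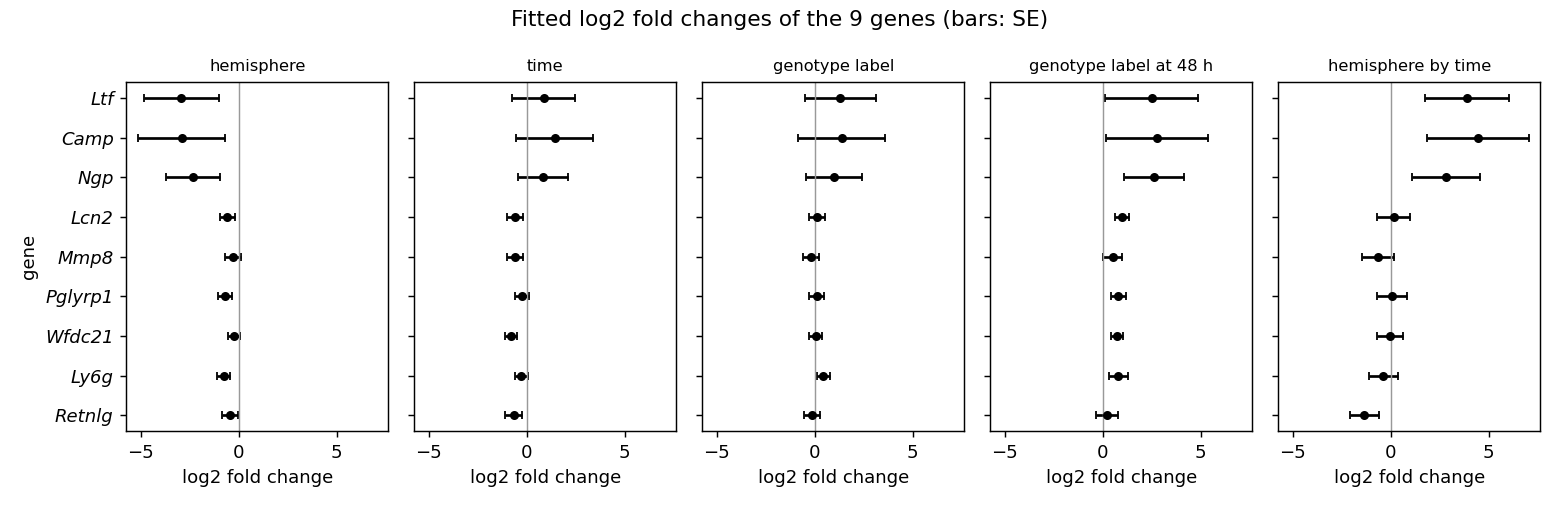
Fitted log2 fold change of each gene (points) with its SE (bars) in the 5 comparisons, on 1 scale: ipsilateral against contralateral, 48 h against 24 h, Prdx1-/- label against WT in all libraries and at 48 h, and the hemisphere by time term. Ltf, Camp and Ngp have the widest bars in every panel, and the 9 points lie left of 0 in the first panel and right of 0 in the fourth.

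Outside neutrophils, each member was lower than in neutrophils of the same library in every gated type with at least 20 cells: microglia, monocytes/macrophages and T/NK cells in 8 libraries and B cells in 7. Free RNA from neutrophils can reach all cells, so each level was taken as a percentage of the neutrophil level and set beside the same percentage for Retnlg, a member that is not a gate gene (S100a8 and S100a9 are). Retnlg was taken as the reference after its values were seen. Where the text says above Retnlg, the percentage of the neutrophil level is meant. Ly6g was at 0 to 2.34 CPM in all 4 types. In microglia, the median percentage over libraries was 0.064 to 0.18% for the 9 members, and that of Retnlg was 0.090%. Lcn2 was above Retnlg in microglia of 8 of 8 libraries (1.28 to 6.27 times) and Pglyrp1 in 7 of 8 (0.988 to 9.17 times). The remaining members were above it in 0 (Ly6g) to 5 (Ltf and Mmp8) of 8. In monocytes/macrophages the median of Retnlg was 0.055%.

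Mmp8, Lcn2, Wfdc21 and Pglyrp1 were above Retnlg in monocytes/macrophages of 8 of 8 libraries. Ltf was above it in 7 of 8, at 0 to 29.7 times the Retnlg percentage. Camp (0 to 23.0 times), Ngp (0.436 to 2.64 times) and Ly6g (0 to 5.94 times) were above it in 4 of 8. Mmp8 was at 85.4, 76.4, 73.0 and 149 CPM contralaterally and at 246, 84.3, 67.9 and 147 CPM ipsilaterally. That is 5.42 to 16.8% of the neutrophil level, and at least 28.7 times the Retnlg percentage. Lcn2 was at 252, 199, 130 and 377 CPM contralaterally and at 472, 194, 67.5 and 379 CPM ipsilaterally, or 1.58 to 5.57% of the neutrophil level. Wfdc21 was at 23.7 to 117 CPM (1.13 to 3.18%) and Pglyrp1 at 0.289 to 1.87% of its neutrophil level. For Mmp8, Lcn2 and Wfdc21, monocytes/macrophages were above microglia and T/NK cells in 8 of 8.

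Within monocytes/macrophages, Lcn2 and Wfdc21 were compared between cells with and without a Mmp8 UMI. In the WT ipsilateral library at 24 h, the 323 of 643 cells with a Mmp8 UMI held 824 CPM of Lcn2 and 182 CPM of Wfdc21, against 70.2 and 16.5 CPM in the cells without one. Chil3 was at 10636 CPM in the former and 2954 CPM in the latter. Retnlg was at 31.2 and 29.8 CPM. Of the neutrophil gate genes, S100a9 was at 277 and 116 CPM and Csf3r at 46.1 and 28.2 CPM. In the WT contralateral library at 24 h S100a9 went the other way, at 59.0 CPM with a Mmp8 UMI and 68.9 CPM without. In every other library S100a9 was higher with a Mmp8 UMI. The values ran from 80.1 against 79.4 CPM (WT ipsilateral, 48 h) to 562 against 1.67 CPM (Prdx1-/- contralateral, 24 h). Csf3r was higher in the cells with a Mmp8 UMI in each of the 8 libraries. The part of neutrophil RNA in these cells was not tested. In the Prdx1-/- ipsilateral library at 48 h, Camp was at 75.2 CPM in the cells with Mmp8 and 250 CPM in those without, and Retnlg at 99.3 and 47.6 CPM. Lcn2 was higher in the cells with Mmp8 in the monocytes/macrophages of each of the 8 libraries, from 135 to 824 CPM against 22.9 to 167 CPM.

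Pglyrp1 had a different distribution. In T/NK cells it was at 73.0, 37.8, 74.9 and 68.2 CPM contralaterally and at 49.2, 72.9, 57.2 and 67.1 CPM ipsilaterally, above microglia and monocytes/macrophages in 8 of 8 libraries. B cells had 20.6 to 39.9 CPM in 7 libraries, below T/NK cells in 7 of 7 and above microglia in 7 of 7. Pglyrp1 was above Retnlg in T/NK cells of 8 of 8 libraries and in B cells of 7 of 7. Wfdc21 in B cells was at 11.5 to 41.3 CPM and above microglia in 7 of 7 libraries. It was also above Retnlg in B cells of 7 of 7 libraries, at 1.24 to 7.93 times the Retnlg percentage. Ltf, Camp and Ngp outside neutrophils were highest in the Prdx1-/- ipsilateral library at 48 h.

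**Figure D5:**
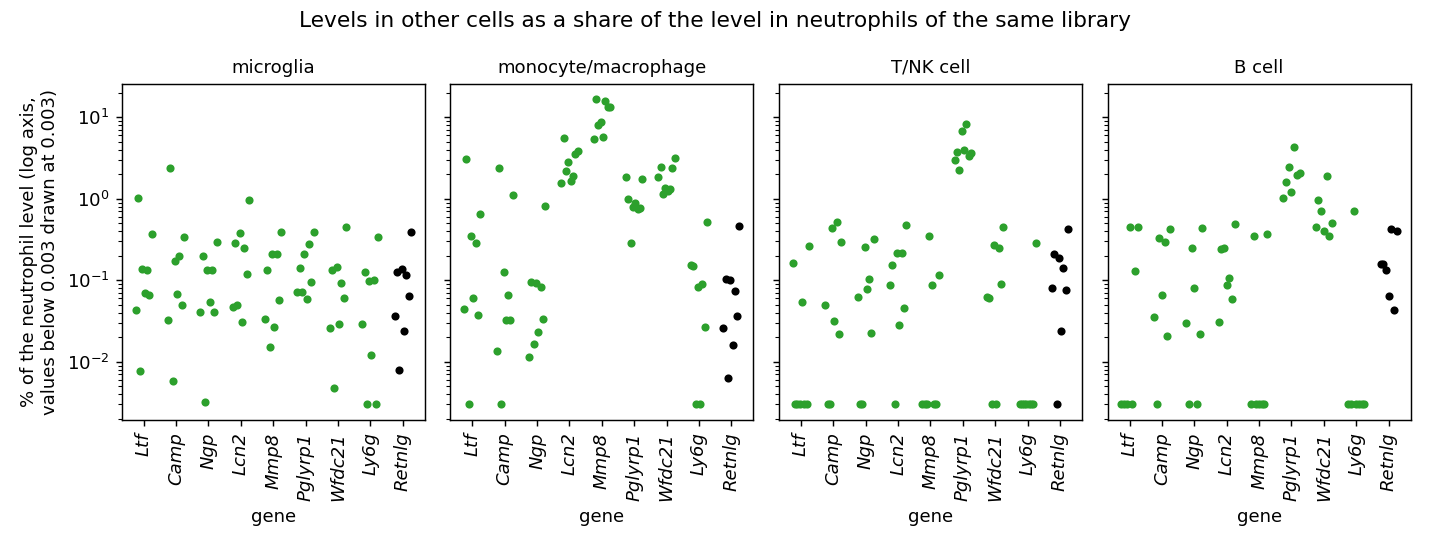
Level of each gene in 4 other cell types as a percentage of its level in neutrophils of the same library, on a log axis, 1 point per library (values below 0.003% are drawn at 0.003%), with Retnlg in black. Lcn2, Mmp8, Wfdc21 and Pglyrp1 in monocytes/macrophages and Pglyrp1 in T/NK and B cells lie above the Retnlg points of the same libraries. So do Lcn2 in microglia and Wfdc21 in B cells.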

How the data were processed

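Live cells sorted from dissociated, saline-perfused hemispheres were sequenced with a 10x Genomics 3' kit, per the labels' protocols. The deposited counts are whole-number UMIs per gene and cell, with no normalization, as the values show; Cell Ranger, Seurat and mm10 are named without versions in the submitters' processing notes. Every deposited cell had at least 501 UMIs, a floor that can remove small cells such as neutrophils first.

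Cells above 10% mitochondrial UMIs were left out (337). Besides neutrophils, 11 gates each required 3 markers with a UMI and at least 20 UMIs of the gate's genes per 10000; cells passing 2 or more gates were left out (679 of the neutrophil gate). Levels by cell type needed 20 cells per library. Raw counts were summed per library over neutrophils and fitted with edgeR 4.0.16 (R 4.3.3; TMM, filterByExpr, robust quasi-likelihood; adjusted p under 0.05). The additive fit held hemisphere, genotype label and time, so that libraries of the other factors served as replicates of a group; genotype label at 48 h and hemisphere by time came from fits with that interaction. Effects that differ between factor levels add to the spread. DESeq2 1.42.0 was an alternative. Doublets were scored with simulated doublets (0.8% per 1000 cells), marked but not removed. The fit, the thinning to 2000 UMIs and the gates were run in Python 3.11.15 and R after the fit and thinning had been tested on simulated data.

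Members, lists and gates were chosen with earlier results of these data known. All 9 members were named, with at most 4 genes of smallest p per list and the 6 genes closest in pattern. In the comparison of rich with other neutrophils the genes named were chosen after their values were seen.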

Additional observations from a re-analysis of the deposited data

Results flagged for a closer look

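The 9 members were examined in 54 groups of 4 libraries for a library far from the other 3 (the gap to the nearest library over the range, against Dixon's 95% critical value), which chance flags in about 1 group in 20. In 4 groups a library stood out. Among the ipsilateral libraries, the one labelled Prdx1-/- at 48 h was far above the other 3 in Ltf (2900 CPM), Camp (14343 CPM) and Ngp (14058 CPM), and these 3 genes rested on the same 230 rich cells. Among the libraries at 48 h, the WT ipsilateral one was far below the other 3 in Pglyrp1 (688 CPM).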

How the results depend on the processing

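Under the alternatives, 740 of 801 member values kept their direction and their side of the threshold, 56 changed sign, none of them past the threshold, and 5 became significant. Of these, 1 was within the ipsilateral libraries and 4 came when 1 library was left out, among them Ngp in the fit that left 1 library of the label at 48 h. Their log2 fold changes are given with the results. No member was called in any comparison by DESeq2, with library totals, without a filter, with the rule's gate alone, with at least 100 S100a8+S100a9 UMIs per 10000, with all deposited cells or with scored doublets left out. The same held for a gate without Csf3r, which was added after the data were seen. With a replicate block of the 2 hemispheres of each label and time, added after the data were seen, hemisphere gave 32 genes with edgeR and 259 with DESeq2, with no member called; whether a pair came from the same mice is not given in the sources used here.

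Counts of genes called over all genes moved more. For hemisphere they were 193 with DESeq2, 130 without a filter and 8 with the gate alone. For time they were 84 with DESeq2, 38 without a filter, 3 with the gate alone or without Csf3r, 4 without doublets, 2 with library totals, the stricter S100 level or all cells, 90 in the ipsilateral libraries (1 member) and 0 without the 24 h libraries labelled Prdx1-/-, an alternative added after the data were seen. For the genotype label they were 1 without a filter, 29 at 48 h only and 6 ipsilaterally. For the label at 48 h they were 14 with DESeq2, 204 without a filter, 2 with library totals, and 0 with the gate alone, without doublets or without Csf3r. For hemisphere by time they were 15 with DESeq2 and 50 without a filter. The cause was not tested.

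Leaving out 1 library at a time gave 0 to 341 genes for hemisphere, 0 to 521 for time, 0 to 70 for the label, 0 to 679 for the label at 48 h (members 0 to 3) and 0 to 171 for hemisphere by time.

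Signs turned as follows on the log2 scale. Without the 24 h libraries labelled Prdx1-/-, time gave Ltf -0.25, Camp -0.018 and Ngp -0.72, and the label gave Mmp8 0.53 and Retnlg 0.24. The label gave Mmp8 0.61 and Retnlg 0.41 at 48 h only, and 0.47 and 0.39 ipsilaterally. Hemisphere by time gave Wfdc21 0.069 with library totals, Lcn2 -0.35 and Pglyrp1 -0.39 with the gate alone, Pglyrp1 -0.084 without doublets, and Lcn2 -0.066 and Pglyrp1 -0.029 without Csf3r.

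Ranges over leaving out 1 library, for members whose sign turned, were as follows. For hemisphere, Mmp8 ran from -0.63 to 0.12 and Wfdc21 from -0.54 to 0.0099. For time, Ltf ran from -0.36 to 2.78, Ngp from -0.31 to 2.15, Pglyrp1 from -0.64 to 0.078 and Ly6g from -0.66 to 0.039. For the label, Mmp8 ran from -0.63 to 0.18, Retnlg from -0.52 to 0.28, Wfdc21 from -0.24 to 0.32, Ngp from -0.14 to 2.11, Lcn2 from -0.31 to 0.50 and Pglyrp1 from -0.29 to 0.40. For the label at 48 h, Mmp8 ran from -0.26 to 1.55, Retnlg from -0.64 to 1.56 and Ltf from -0.38 to 3.83. For hemisphere by time, Ngp ran from -0.66 to 3.66, Lcn2 from -1.17 to 0.85, Pglyrp1 from -1.20 to 0.79, Wfdc21 from -0.97 to 0.57, Ly6g from -1.53 to 0.46 and Mmp8 from -2.04 to 0.17.

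The 41 to 290 contralateral neutrophils limit the shares of rich cells there, and with 1 library per combination a difference between 2 libraries has no replicate.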
